A study of Mus musculus with 4 samples.

Results

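Transcription factors that mark the layers of the cerebral cortex were followed on 4 arrays of adult mouse cortex. They were the 8 genes Cux1, Cux2, Rorb, Fezf2, Bcl11b, Tbr1, Foxp2 and Etv1. Every probe set that the authors' deposited table names after one of them was taken, which gave 29 probe sets of the 45101 on the array, and 8 of the 20737 genes named there. The arrays held RNA of female C57BL/6J mice, an inbred laboratory strain, aged 90 days. Dams drank nicotine or, as the control, saccharin, a sweetener, from conception, and the offspring were withdrawn from either solution at postnatal day 21. Each array, an Affymetrix expression chip, took biotin-labelled RNA pooled from 4 animals, and each title stands on 2 arrays, numbered 1 and 2. The source name of every array gives the exposure that its title does not. The groups carry the names titled nicotine and titled saccharin here, and a difference below 0 means the lower value in titled nicotine. Every sign turns if the source names are right. Nothing says whether the 2 arrays of a title came from separate pools, so a p-value covers the spread of these arrays alone, which may be technical. No dose is stated.

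The neocortex is built of stacked layers whose excitatory neurons are generated in order and keep, into adult life, part of the transcription factor code that set their identity. Cux1, Cux2 and Rorb mark upper layers, whose neurons mostly contact other cortical areas or receive thalamic input. Fezf2, Bcl11b and Etv1 mark deep neurons that project below the cortex, and Tbr1 and Foxp2 mark the deepest neurons, which project to the thalamus. Several of these factors repress each other in development, as Tbr1 represses Fezf2. The levels in a bulk sample cannot tell fewer cells of a layer from less RNA per cell.

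No layer factor passed the test between the titles. In limma, 0 of the 29 probe sets had an adjusted p under 0.05, against 0.00222% of all probe sets, and the unadjusted p was under 0.05 for 1 of the 29 and for 347 of the 45101. Every adjusted p of the 29 was 1. Titled nicotine was lower in both array numbers for 11 of the 29 probe sets, against 15.8% of all probe sets, and higher in both for 5, against 11.7%. Of the rest, 8 had opposite signs in the 2 numbers and 5 had no difference in at least one of them. For 19616 of the 45101 probe sets at least one number held no difference at all, so the share was also taken on the brightest probe set of each gene. There 3 of the 8 layer genes, Cux2, Rorb and Foxp2, were lower in both numbers, and 0 were higher in both. Those 3 genes make 37.5% of the 8, close to the 30.6% found over all 12206 genes whose brightest probe set reached the median level of all probe sets, 4.04. Of the 12206 genes 16.8% were higher in both. Titles lay apart, with titled nicotine lower, in 1 of the 8, Rorb, against 7.21% of those genes, and with titled nicotine higher in 0 of the 8, against 2.71%. The median difference of the 8 was -0.025, beside -0.029 over those 12206 genes. With each array centred on its own median, Cux2, Rorb and Foxp2 again were the 3 of 8 lower in both numbers, beside 18.9% of the 12206 genes, and 0 of 8 were higher in both, beside 28.9%. Of the 29 probe sets 9 were then lower in both and 9 higher in both, a count for which no share over all probe sets was taken. The 9 higher include probe sets of Cux1, Cux2 and Foxp2 that read the same on every array. Centring alone gave those their sign. An exact two-sided permutation test of 2 arrays against 2 cannot give a p below 0.333.

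**Figure D1:**
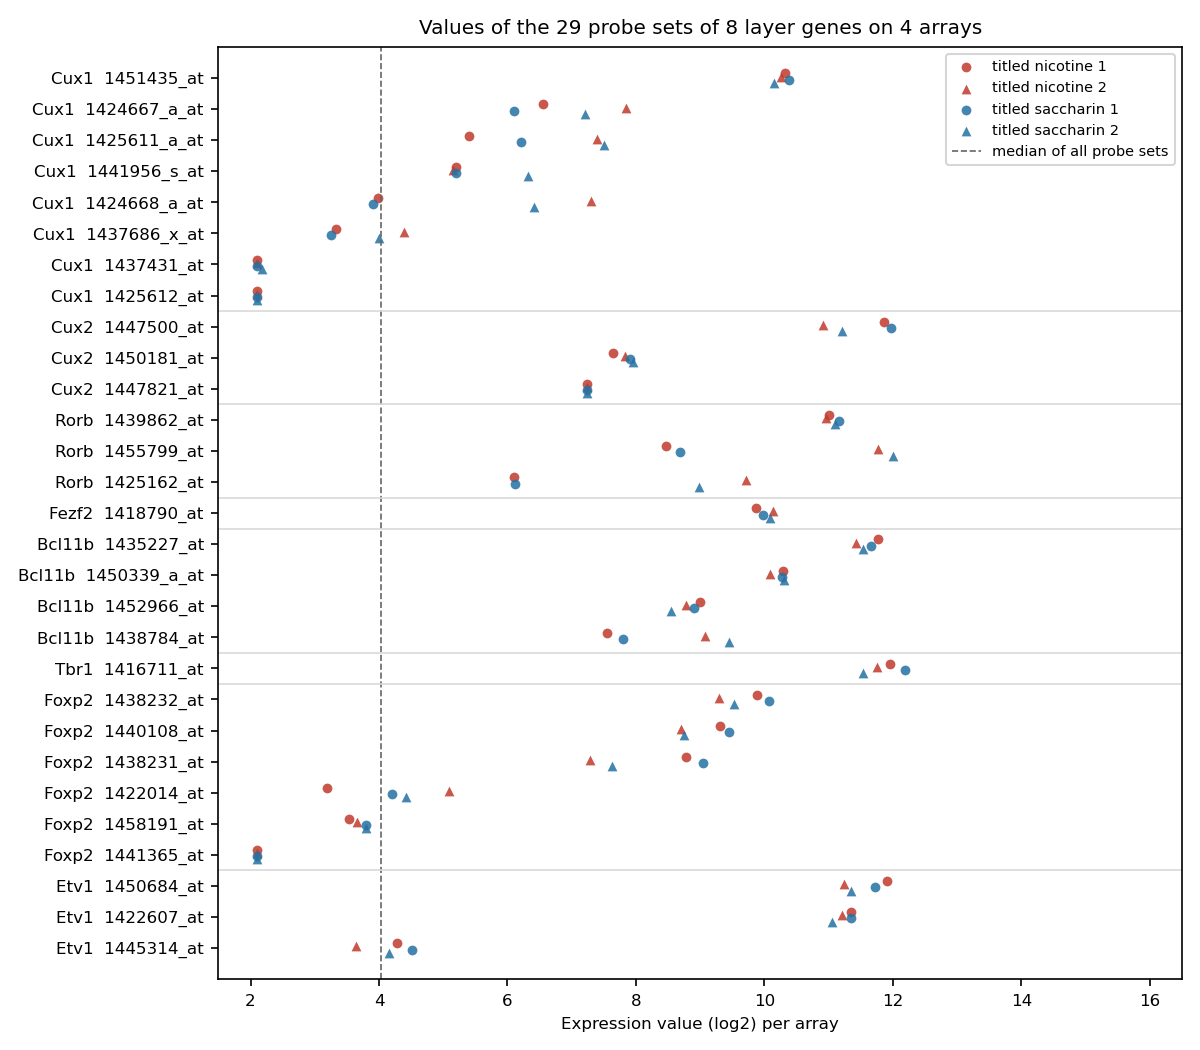
Expression value (log2) of the 29 probe sets on each of the 4 arrays, with genes separated by grey lines; colour gives the title, shape the array number, and the dashed line the median of all probe sets. The dimmer 2 Rorb and several Cux1 probe sets split by array number, while most others lie close together.

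Of the 29 probe sets, 24 reached the median level in the mean of the 4 arrays, among them the only probe sets of Fezf2 and Tbr1 and all of Cux2, Rorb, Bcl11b and Etv1. Levels of different probe sets are not on one scale, so the genes are not ranked by level. For the tissue label, markers of cortical excitatory neurons were looked up, and all 7, among them Neurod6 and the layer factor Tbr1, reached the median level. So did 12206 of the 20737 genes and 9 of 12 striatal markers, so reaching that level does not set cortex apart from neighbouring tissue. Array medians ran from 3.88 to 4.09. In the authors' deposited table, which does not say which group was subtracted, 24 of the 29 values have the sign opposite to the difference by title given here and 2 the same, as over all probe sets, where 24549 were opposite and 4467 the same.

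Rorb, the nuclear receptor gene that marks layer 4 and is needed for its barrel patterning in mouse sensory cortex, had the difference that was most alike in the 2 numbers among the brightest probe sets of the 8. Its brightest probe set, 1439862_at, read 11.01 and 10.95 on the titled nicotine arrays 1 and 2 and 11.15 and 11.09 on the titled saccharin arrays 1 and 2. Both titled nicotine arrays lay below both titled saccharin arrays, as in 3 of the 29 probe sets and in 3.64% of all probe sets. The reverse held in 0 of the 29 and in 1.73% of all. The difference was -0.14 (SE 0.0373, n = 2 each, limma adjusted p = 1, unadjusted p = 0.0491), with -0.14 within number 1 and -0.14 within number 2. With each array centred on its own median it was -0.089. The second, 1455799_at, read 8.47 and 11.77 on the titled nicotine arrays 1 and 2 and 8.69 and 12.00 on the titled saccharin arrays 1 and 2. The arrays of number 2 stood far above those of number 1, so the titles overlapped, but titled nicotine was the lower array in each pair. Its difference was -0.22 (SE 2.17), with -0.22 within number 1 and -0.23 within number 2. The third, 1425162_at, read 6.11 and 9.71 for titled nicotine and 6.11 and 8.99 for titled saccharin, and gave the opposite sign, 0.36 (SE 2.14), with -0.0063 within number 1 and 0.72 within number 2. Rorb therefore was lower in titled nicotine on 2 of its 3 probe sets in both numbers, and higher on the third in number 2.

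RefSeq lists a pair of starts for Rorb, 110079 bases apart, and a pair for Cux2, 2026 bases apart. The 250 bases before each are shown because these are the upper-layer genes whose brightest probe sets were lower in both numbers, and because each has a pair of listed starts. Sequences run 5′ to 3′ on the gene's strand in build GRCm38.p6, credited to RefSeq, with CpG dinucleotides, the sites of DNA methylation, in capitals.
Rorb start 1, chr19:19111197-19111446, minus strand: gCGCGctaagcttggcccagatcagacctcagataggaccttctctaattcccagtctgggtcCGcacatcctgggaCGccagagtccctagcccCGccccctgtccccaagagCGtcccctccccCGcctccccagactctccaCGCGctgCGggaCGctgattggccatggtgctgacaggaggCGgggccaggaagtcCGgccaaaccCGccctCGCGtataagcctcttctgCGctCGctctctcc
Rorb start 2, chr19:19001118-19001367, minus strand: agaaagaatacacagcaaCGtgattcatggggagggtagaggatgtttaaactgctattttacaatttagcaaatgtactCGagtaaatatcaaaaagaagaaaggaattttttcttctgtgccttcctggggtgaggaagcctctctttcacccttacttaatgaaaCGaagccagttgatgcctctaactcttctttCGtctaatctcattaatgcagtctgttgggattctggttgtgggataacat
Cux2 start 1, chr5:122049852-122050101, minus strand: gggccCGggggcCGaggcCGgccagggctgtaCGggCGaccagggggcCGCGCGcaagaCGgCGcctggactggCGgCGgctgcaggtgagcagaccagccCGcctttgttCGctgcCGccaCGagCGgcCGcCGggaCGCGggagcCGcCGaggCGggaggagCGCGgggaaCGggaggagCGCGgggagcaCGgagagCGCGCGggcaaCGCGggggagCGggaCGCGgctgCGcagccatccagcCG
Cux2 start 2, chr5:122047826-122048075, minus strand: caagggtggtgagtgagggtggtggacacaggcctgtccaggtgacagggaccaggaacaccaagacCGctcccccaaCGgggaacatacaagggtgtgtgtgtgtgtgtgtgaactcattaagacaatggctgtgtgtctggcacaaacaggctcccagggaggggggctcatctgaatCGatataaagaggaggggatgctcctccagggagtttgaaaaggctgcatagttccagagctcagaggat
The first Rorb start held 18 CpG in 250 bases and was 66.0% G or C, and the second held 4 and was 39.2%. The first Cux2 start held 40 CpG at 80.0%, and the second 3 at 55.2%. The median over 32851 promoters of the same length was 6 CpG at 52.4%. Thus Rorb and Cux2 each have a CpG-rich start and a CpG-poor one. Which transcript a probe set reads was not analysed here.

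Motifs of the factors' own families were searched on both strands in the 10 such windows of 7 of the 8 genes, all but Foxp2. The core motif AGGTCA of nuclear receptors such as Rorb was in 0 of the 10 and in 4607 of all 32851 promoters. The T-box motif TCACACCT was in 0 of the 10 and in 1.12% of all. The ETS motif CCGGAAG, of the family of Etv1, was in 0 of the 10 and in 6.91% of all. The forkhead motif TGTTTAC was found once, before Cux1, and in 3.17% of all. The Cux motif ATCGAT, which reads the same on both strands, was found once, before the second start of Cux2 printed above, and in 0.728% of all. These are matches of letters in a short window, not binding sites.

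Cux2, a homeodomain factor of layers 2 to 4 that promotes dendrite branching and spine formation in mouse upper-layer neurons, stood lower in titled nicotine in both numbers on both of its probe sets that varied. The brightest, 1447500_at, read 11.86 and 10.91 on the titled nicotine arrays 1 and 2 and 11.97 and 11.21 on the titled saccharin arrays 1 and 2. Here the pairs differed less within a number than the numbers did from each other. The difference was -0.20 (SE 0.565, n = 2 each, limma adjusted p = 1), with -0.11 within number 1 and -0.30 within number 2. The second, 1450181_at, read 7.64 and 7.83 on the titled nicotine arrays 1 and 2 and 7.91 and 7.96 on the titled saccharin arrays 1 and 2, without overlap between the titles, and differed by -0.19 (SE 0.0912), with -0.26 within number 1 and -0.12 within number 2. The third, 1447821_at, stood at 7.24 on every array. Such a value identical on all 4 arrays (within 1e-06) and above the lowest value occurred in 1712 probe sets, so it is not particular to Cux2, and it carries no comparison.

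Cux1, the close relative of Cux2 with the same layers, had 8 probe sets that did not give one direction. The gene also yields a transcript for CASP, a Golgi protein without the DNA-binding domains, and the table does not say which transcript each probe set reads. The brightest, 1451435_at, read 10.33 and 10.27 on the titled nicotine arrays 1 and 2 and 10.39 and 10.15 on the titled saccharin arrays 1 and 2, and differed by 0.029 (SE 0.114, n = 2 each), with -0.059 within number 1 and 0.12 within number 2. The sign thus differed between the numbers. Probe set 1424667_a_at read 6.55 and 7.85 for titled nicotine and 6.11 and 7.20 for titled saccharin and was higher in titled nicotine in both numbers, by 0.44 and 0.65. Probe set 1424668_a_at read 3.99 and 7.30 for titled nicotine and 3.91 and 6.42 for titled saccharin, with a difference of 0.48 (SE 1.93), and was also higher in both. The dim 1437686_x_at, whose name marks probes that can bind other transcripts, had the same direction at 0.23. Probe set 1425611_a_at went the other way in both numbers, 5.40 and 7.40 for titled nicotine and 6.21 and 7.50 for titled saccharin, a difference of -0.45 (SE 1.11). Probe set 1441956_s_at read 5.20 and 5.15 for titled nicotine and 5.20 and 6.32 for titled saccharin, so its difference of -0.59 (SE 0.523) came from the titled saccharin array 2 alone. The remaining 2 stood at the lowest value of the arrays, 2.10, on at least 3 of 4 arrays and hold no signal. Every one of the 8 had an adjusted p of 1 in limma.

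Fezf2, the zinc finger factor that directs the subcerebral projection neurons of layer 5, read 9.87 and 10.14 on the titled nicotine arrays 1 and 2 and 9.98 and 10.09 on the titled saccharin arrays 1 and 2 on its only probe set. All 4 values lay within 0.27 of each other. The difference was -0.033 (SE 0.136, n = 2 each, limma adjusted p = 1), with -0.12 within number 1 and 0.050 within number 2. Centring the arrays turned it to 0.021.

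Bcl11b, also called Ctip2, acts downstream of Fezf2 in the outgrowth of corticospinal axons and is also made by striatal projection neurons and cortical interneurons. Its brightest probe set, 1435227_at, read 11.77 and 11.43 on the titled nicotine arrays 1 and 2 and 11.66 and 11.54 on the titled saccharin arrays 1 and 2. The titled nicotine arrays enclosed the titled saccharin ones, and the difference was -0.0022 (SE 0.170, n = 2 each, adjusted p = 1), or 0.052 with the arrays centred. The second, 1450339_a_at, read 10.29 and 10.09 for titled nicotine and 10.27 and 10.30 for titled saccharin, a difference of -0.099 (SE 0.0962) whose sign differed between the numbers. The third, 1452966_at, read 8.995 and 8.77 for titled nicotine and 8.90 and 8.55 for titled saccharin and was higher in titled nicotine in both numbers, by 0.095 and 0.23. The fourth, 1438784_at, read 7.54 and 9.08 for titled nicotine and 7.80 and 9.45 for titled saccharin and was lower in both, at -0.26 and -0.37. The 4 probe sets of Bcl11b thus gave no common direction.

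Etv1, an ETS factor once named Er81 and a marker of layer 5 pyramidal neurons, gave small differences on its bright probe sets. The brightest, 1450684_at, read 11.91 and 11.24 on the titled nicotine arrays 1 and 2 and 11.72 and 11.35 on the titled saccharin arrays 1 and 2, with the highest and the lowest of the 4 values both from titled nicotine. Its difference was 0.037 (SE 0.355, n = 2 each, adjusted p = 1), with 0.18 within number 1 and -0.11 within number 2. Probe set 1422607_at read 11.35 and 11.21 for titled nicotine and 11.35 and 11.05 for titled saccharin, a difference of 0.080 (SE 0.153). The third, 1445314_at, lay near the median level at 4.28 and 3.65 for titled nicotine and 4.51 and 4.16 for titled saccharin, and differed by -0.37 (SE 0.337), lower in both numbers.

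Tbr1, the T-box factor of layer 6 corticothalamic neurons, read 11.95 and 11.75 on the titled nicotine arrays 1 and 2 and 12.19 and 11.54 on the titled saccharin arrays 1 and 2 on its only probe set. Both extremes were titled saccharin arrays, the highest in number 1 and the lowest in number 2. The difference was -0.017 (SE 0.316, n = 2 each, limma adjusted p = 1), made of -0.24 within number 1 and 0.21 within number 2, and centring turned it to 0.037.

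Foxp2, the forkhead factor of layer 6 that is also abundant in striatal neurons and in people is tied to speech, was lower in titled nicotine in both numbers on 4 of its 6 probe sets. The brightest, 1438232_at, read 9.88 and 9.30 on the titled nicotine arrays 1 and 2 and 10.08 and 9.53 on the titled saccharin arrays 1 and 2. In each pair the titled nicotine array was lower, while the titles overlapped across numbers. The difference was -0.22 (SE 0.370, n = 2 each, adjusted p = 1), with -0.20 within number 1 and -0.23 within number 2. Probe set 1440108_at read 9.31 and 8.70 for titled nicotine and 9.45 and 8.75 for titled saccharin, a difference of -0.095 (SE 0.432), with -0.14 within number 1 and -0.050 within number 2. Probe set 1438231_at read 8.78 and 7.28 for titled nicotine and 9.04 and 7.62 for titled saccharin, a difference of -0.30 (SE 0.957), with -0.27 within number 1 and -0.34 within number 2. These brightest 3 of Foxp2 shared the sign in every pair of arrays as deposited. With the arrays centred, 1440108_at was no longer lower in both numbers. Below the median level, 1458191_at read 3.53 and 3.66 for titled nicotine and 3.79 and 3.81 for titled saccharin, a difference of -0.21. Probe set 1422014_at, near that level, was at -1.01 within number 1 and 0.67 within number 2. The sixth stood at the lowest value on every array. The 6 probe sets of one gene share their RNA and are not 6 observations.

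**Figure D2:**
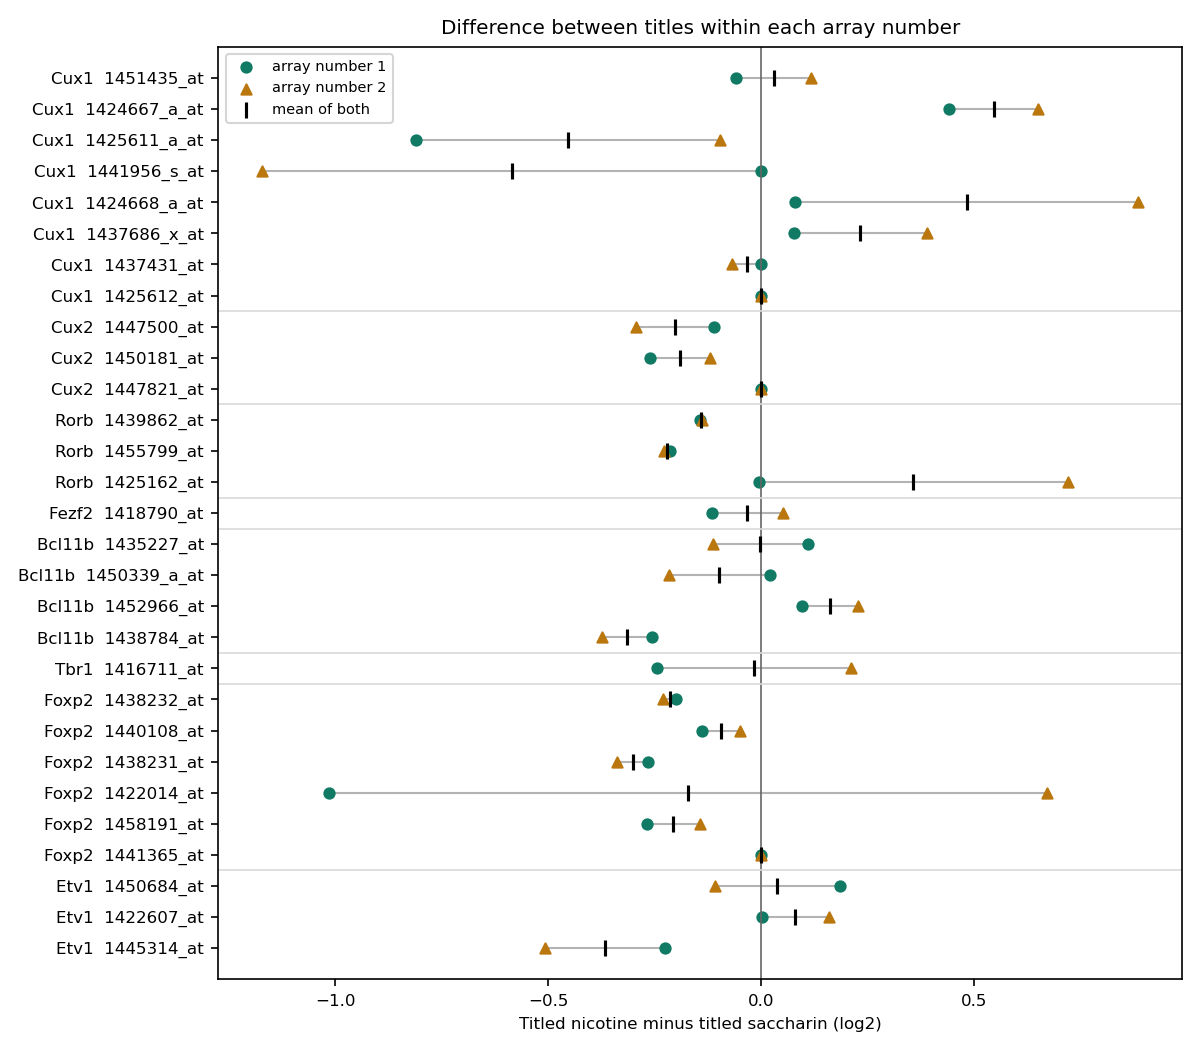
Titled nicotine minus titled saccharin (log2) for each of the 29 probe sets, within array number 1 (circles) and number 2 (triangles), with the mean as a bar. The 2 brighter Rorb probe sets lie at -0.14 and -0.14 and at -0.22 and -0.23, while Tbr1 and the brightest Bcl11b probe set fall on both sides of 0.

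The arrays differed more by number than by title. The number is not explained in the labels, and number 2 minus number 1 is given as a measured shift. In limma 1 of the 29 probe sets, Rorb 1455799_at, passed between the numbers, against 2.44% of all probe sets. It stood 3.31 higher on the log2 scale in number 2 (SE 0.146, n = 2 each, limma adjusted p = 0.0456), by 3.30 in titled nicotine and 3.31 in titled saccharin. With the title as a term the adjusted p was 0.0836, and without titled nicotine 1, titled nicotine 2, titled saccharin 1 or titled saccharin 2 in turn it was 0.191, 0.114, 0.176 and 0.106. Centred arrays gave 11 calls among the 29, beside 9501 of all 45101 probe sets. A filter on dim probe sets gave 9 among the members it kept, beside 6820 of the 22551 probe sets kept. The third Rorb probe set was 3.24 higher (adjusted p = 0.0867), while the brightest shifted by -0.057. On a linear scale the third and the second stood higher in number 2 by 9.43 and 9.90 times. A spread between probe sets as wide as that of Rorb, 3.36, was found in 7.83% of the 5340 genes with at least 2 probe sets that reached the median level.

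Other layer factors split in the same way, and none of the values in this paragraph passed the test. Cux1 probe set 1424668_a_at was 2.91 higher in number 2 and 1451435_at was at -0.15, and Bcl11b 1438784_at was 1.59 higher while its other 3 lay between -0.29 and -0.087. Foxp2 was lower in number 2 on its brightest 3 probe sets, at -0.56, -0.66 and -1.46, as were Cux2 1447500_at at -0.86, Tbr1 at -0.42 and the 3 of Etv1 between -0.52 and -0.22. Fezf2 was at 0.19. Both arrays of number 2 lay below both of number 1 in 11 of the 29, against 25.7% of all probe sets, and above in 9, against 16.6%. On 1 probe set per gene, 6 of the 8 were lower in number 2, against 54.9% of the 12206 genes, and 1, Fezf2, was higher, against 19.5%.

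**Figure D3:**
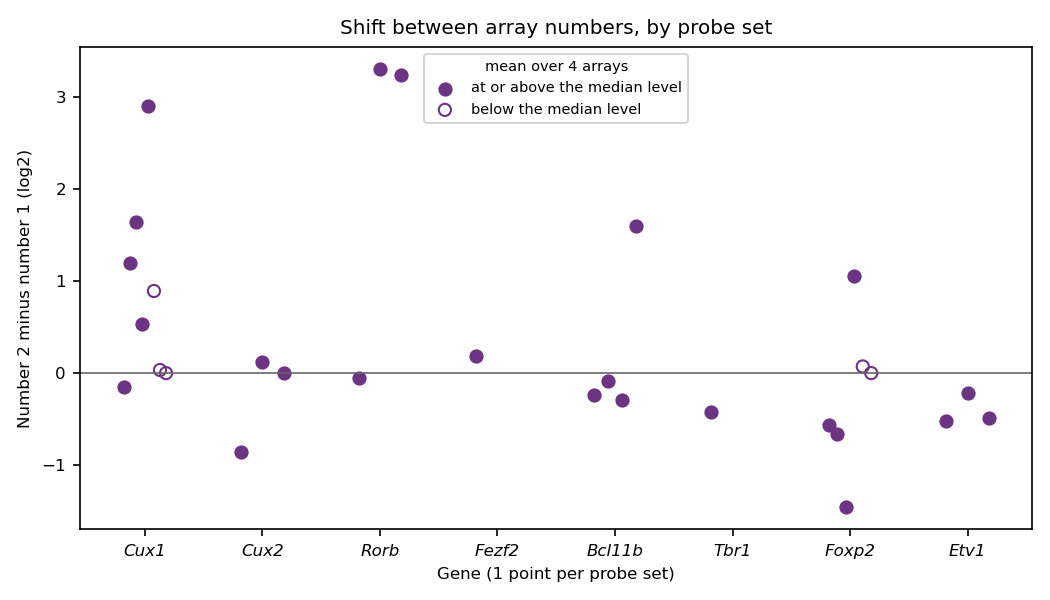
Number 2 minus number 1 (log2) for every probe set, by gene; filled points are probe sets whose mean reached the median level. Rorb has one point near 0 and 2 above 3, and Cux1, Bcl11b and Foxp2 also hold probe sets on both sides of 0.

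Measures of RNA and of neighbouring tissue moved with the number. For Actb, the 3′ end read above the 5′ end, a gap that widens as RNA breaks or labelling falls short, by 2.39 and 2.38 in number 1 and 1.25 and 1.73 in number 2. For Gapdh the gap was 0.092 and 0.13 against -0.14 and 0.0070. Of 12 striatal markers, 9 reached the median level, Isl1 was at the lowest value on all arrays, and Drd2 and Adora2a, the receptors of one class of striatal projection neuron, were no higher than 2.17 and 2.25. Their summed linear level in number 1 was 11317 and 9682, and the arrays of number 2 summed to 6499 and 6845. Foxp2 was lower in number 2 on its brightest 3 probe sets and 1.06 higher on 1422014_at. By title the striatal sum ran from 6499 to 11317 in titled nicotine and from 6845 to 9682 in titled saccharin, so the titles overlapped. The median difference of the 12 between the numbers was -0.45, beside -0.18 over the 12206 genes, so a fall in number 2 was not particular to striatal markers. Of the 12, 1, Rgs9, a striatal regulator of G protein signalling, passed at -0.62 (limma adjusted p = 0.0450). Ppp1r1b, a striatal phosphatase inhibitor, stood at 1.07 and Rarb, a retinoic acid receptor, at 0.20. The 7 cortical excitatory markers had a median of -0.27, and 2 of them passed in opposite directions. Beside these 2 of 7 and the 1 of 12 striatal markers stand 4.10% of the 12206 genes. Slc17a7, the vesicular glutamate transporter, rose by 2.46 (limma adjusted p = 0.0459), and Camk2a, a calcium-dependent kinase, fell by 0.65 (limma adjusted p = 0.0398). With the title as a term, 0 of all probe sets passed between the numbers. The summed levels of 10 interneuron markers, which Bcl11b can accompany, were 56776 and 56762 in number 1 and 50805 and 47581 in number 2. Their median difference between the numbers was -0.33. The part of these measures in the shifts of the layer factors was not tested.

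Markers of other tissue or cells were summed by title in the same way. Choroid plexus, of which 3 of 7 markers reached the median level, summed to 4228 to 16044 in titled nicotine and 1794 to 3763 in titled saccharin, with Ttr, its transthyretin gene, highest on titled nicotine 2. Oligodendrocyte markers, 8 of 8 at that level, summed to 155347 to 163324 in titled nicotine and 138804 to 150988 in titled saccharin. Of the 8, 6 were higher in titled nicotine in both numbers, against 16.8% of the 12206 genes. In limma 0 of 8 passed, and 1, Mobp, named after its values were seen, had an unadjusted p under 0.05. The sums were 64051 to 78612 in titled nicotine and 65457 to 84448 in titled saccharin for astrocytes (5 of 6 reached the level), 6988 to 7122 in titled nicotine and 6107 to 7207 in titled saccharin for microglia (6 of 6) and 1971 to 2059 in titled nicotine and 1982 to 2379 in titled saccharin for endothelium (5 of 5). For hippocampus (3 of 7) they were 1165 to 1316 in titled nicotine and 1253 to 1441 in titled saccharin, and for thalamus (5 of 6, Gbx2 at the lowest value) 2604 to 3186 in titled nicotine and 2814 to 3246 in titled saccharin. Their part in the lower values of Cux2, Rorb and Foxp2 was not tested.

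Other genes of the same layers were counted from lists, 1 probe set per gene, and 0 of their members passed between the titles in limma, where the unadjusted p was under 0.05 for 1 upper-layer gene, Plxnd1, 1 layer 5 gene, Kcnk2, and 0 layer 6 genes. Between the numbers 1 upper-layer gene, Rspo1, 2 layer 5 genes, Ldb2 and Crim1, and 1 layer 6 gene, Ccn2, passed, and these were named after their values were seen. They are read against 4.10% of the 12206 genes called between the numbers, and all are lost with the title as a term. Of 20 upper-layer genes, titled nicotine was lower in both numbers for 8, higher in both for 2 and of opposite sign for 7. Over the 12206 genes 30.6% were lower in both and 16.8% higher in both. Their median difference was -0.071, or -0.059 within number 1 and -0.012 within number 2, and it was -0.0094 when a gene's probe sets were averaged. The same medians over the 12206 genes were -0.029, -0.010 and -0.040. Of the 4 brightest, Calb1, a calcium-buffering protein of upper layers, read 13.56 and 13.44 for titled nicotine and 13.65 and 13.65 for titled saccharin, a difference of -0.15. Rasgrf2, a Ras exchange factor, differed by -0.12, Bhlhe22, a bHLH factor of cortical area identity, by -0.081, and Lmo4, a LIM adaptor, by -0.022. Calb1, Rasgrf2 and Bhlhe22 were lower in both numbers, as the brightest probe sets of Cux2 and Rorb were. Lmo4 changed sign between the numbers.

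Of 16 layer 5 genes, 5 were lower in both numbers, 3 higher in both and 8 of opposite sign, with a median of -0.031. That median turned to 0.023 with the arrays centred. Pcp4, a calmodulin regulator, differed by -0.014, S100a10, an annexin partner, by -0.012, Crym, a thyroid hormone-binding crystallin, by -0.048 and the LIM-binding Ldb2 by -0.011. Ldb2 passed between the numbers, at -1.04 (limma adjusted p = 0.0169), a call lost with the title as a term. Of 15 layer 6 genes, 5 were lower in both, 2 higher in both and 6 of opposite sign, with a median of -0.0043, which centring turned to 0.049. Both lists stand beside 30.6% of the 12206 genes lower in both and 16.8% higher in both. Tle4, a corepressor of corticothalamic neurons, differed by -0.088, Hs3st4, a heparan sulfate enzyme, by -0.042 and Rprm by 0.045. Nr4a2, an orphan nuclear receptor of the deepest layer that activity also induces, read 12.80 and 11.38 for titled nicotine and 12.72 and 12.26 for titled saccharin, a difference of -0.40 that was 0.081 within number 1 and -0.88 within number 2.

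Relatives and partners of the 8 factors gave no passing gene either, with an unadjusted p under 0.05 for 0 of 10 family relatives, 1 of 15 developmental factors, Nfia, and 0 of 10 genes listed as possible targets or partners. The family relatives had a median difference of 0.0013, with 1 lower in both numbers and 0 higher in both, and Tbx21 was at the lowest value on all arrays. Bcl11a, the relative of Bcl11b, differed by 0.077, Etv5, the relative of Etv1, by 0.053, Foxp1, which pairs with Foxp2, by 0.0027 and Rora, the relative of Rorb, by -0.12. Of the relatives, Rora thus shared the sign of the brightest probe set of Rorb, at -0.060 within number 1 and -0.18 within number 2. The developmental factors had a median of -0.0082, with 4 lower and 2 higher in both, Id2, an inhibitor of bHLH factors, at 0.045, Nr2f1, an areal patterning receptor, at 0.031 and Neurod6 at 0.11. Among the possible targets the median was -0.023, with 1 lower and 1 higher in both. Over the 12206 genes 30.6% were lower in both and 16.8% higher in both. Of the 10 family relatives, 5 had no difference in at least one number. Reln, the secreted guide of layering that Tbr1 activates in mouse, was -0.27, from 0.085 within number 1 and -0.62 within number 2, Auts2, another Tbr1 target, -0.16, Gad1, which makes GABA, 0.10 and Epha4, an ephrin receptor, -0.021.

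**Figure D4:**
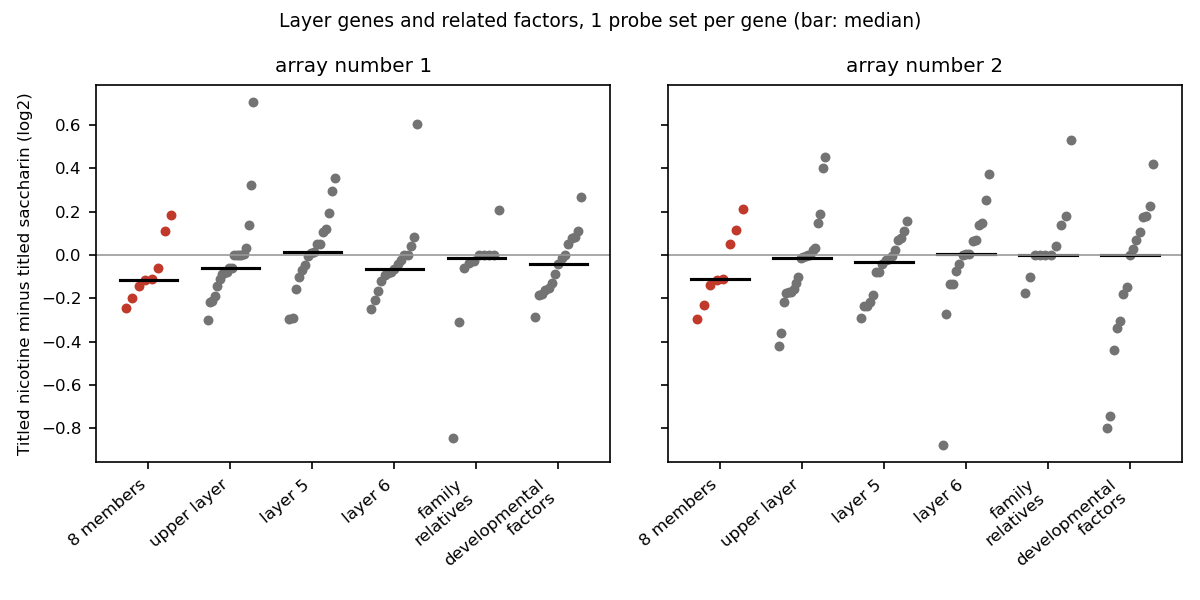
Titled nicotine minus titled saccharin (log2) within array number 1 (left) and number 2 (right) for the 8 layer factors (red) and 5 lists of layer genes, family relatives and developmental factors (grey), 1 point per gene at its brightest probe set, bars at the medians. The 6 groups hold points on both sides of 0 in both numbers.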

How the data were processed

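Per the labels' protocols, total RNA was extracted, that of 4 animals went into 1 pool, and 5 pools per group and 20 subjects in all are stated. Each array column was deposited as log2 values by probe set and was used as it stands, since how the scans were corrected, scaled and summarised is not given in the sources used here. Per the file headers, the authors' deposited table of 1 limma comparison lists log2 fold changes with mean log2 levels, a p-value raw and adjusted, and a moderated t and a log odds, each a score. The submitters' processing notes name limma with no version.

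All 45101 probe sets were fitted by title, and again by array number, with limma 3.58.1 in R 4.3.3 (lmFit, eBayes, Benjamini-Hochberg, threshold 0.05). The fit by title had 0.320 prior and 2.32 total degrees of freedom and was tested on simulated data. Those data had independent noise and no shift between array numbers, so the test does not cover such a shift. The shifts from number 1 to number 2 in the 2 titles correlated at 0.804 over all probe sets, so differences within each number are given beside each result, although the labels do not explain the number. Text names every probe set of the 8 genes and the 4 brightest genes of each layer or partner list, beside single genes that mark a tissue. The genes, the 16 lists and the motifs were chosen with earlier results of these data known. Alternatives were quantile normalization, centring, a filter on dim probe sets, trend and robust variances, the number as a block (also with the filter), the title as a term, the authors' deposited table, the mean of all probe sets and leaving out each array. The number of arrays limits precision. Results of some genes of the lists are not reported here.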

Additional observations from a re-analysis of the deposited data

How the results depend on the processing

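Between the titles 0 of the 29 probe sets were called by limma under every alternative run, with unadjusted p under 0.05 for up to 4 of them (the array number as a replicate block), a fit in which 2217 of the 45101 were under 0.05, against 347 without the block. Over all probe sets the count was 1 as reported and 0 with quantile normalization, centring, the filter on dim probe sets, trend and robust variances, the replicate block, and the block with the filter. It was 0 to 379 with 1 array left out, and 14 in the authors' deposited table. The count was 379 without titled nicotine 1 and 277 without titled saccharin 1, but 0 without titled nicotine 2 or titled saccharin 2. Each fit with 1 array left out has a single array in 1 title and leaves the titles unbalanced over the numbers. The cause of the spread in these counts was not tested. With the replicate block the adjusted p was 0.456 for Rorb 1439862_at and 0.520 for 1455799_at, 0.741 for Foxp2 1438232_at and 0.889 for 1438231_at, and 1 for the others. For Rorb 1439862_at the unadjusted limma p was 0.0491 as reported and 0.0583 with quantile normalization. It was 0.166 with trend and robust variances, 0.315 with the filter and 0.676 with centring. The block gave 0.00277, and the block with the filter 0.165. The labels do not say that the numbers pair the arrays. Between the numbers 1 of the 29 was called as reported, 11 when arrays were centred, 9 with the filter (which tests fewer probe sets), 0 with the title as a term and 0 to 4 with 1 array left out. Over all probe sets that count was 1102 (539 higher, 563 lower), 9501 (2611 higher, 6890 lower) when centred, 6820 with the filter, 1878 with trend and robust variances, 0 with the title as a term and 989 to 3177 with 1 array left out. Centring lowered the difference between numbers by 0.16 and raised that between titles by 0.054 for every probe set.

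Signs between titles turned to 0.0071 for Bcl11b 1435227_at with quantile normalization, and with centring to 0.052 there, 0.020 for Cux1 1437431_at, 0.021 for Fezf2 and 0.037 for Tbr1. Between numbers Foxp2 1458191_at turned to -0.077 with quantile normalization and -0.085 with centring, Cux1 1437431_at to -0.12 and Cux2 1450181_at to -0.038. The authors' deposited table, whose direction is not stated, had the opposite sign at -0.051, -0.26, 0.11, 0.68, -0.53, -0.10 and 0.017 for Cux1, 0.23 and 0.12 for Cux2, 0.12, 0.30 and -0.55 for Rorb, 0.094 for Fezf2, 0.069, 0.094, -0.17 and 0.19 for Bcl11b, 0.24, 0.16, 0.24 and 0.093 for Foxp2 and -0.058, -0.091 and 0.29 for Etv1. With 1 array left out, 20 of the 29 differences between titles changed sign: Cux1 -0.090 to 0.15 and -1.46 to 0.55 and -0.11 to 1.20 and -1.17 to 2.14 and -0.29 to 0.76, Cux2 -0.68 to 0.27, Rorb -1.88 to 1.43 and -1.44 to 2.16, Fezf2 -0.17 to 0.10, Bcl11b -1.14 to 0.51 and -0.17 to 0.17 and -0.20 to 0.0037 and -0.017 to 0.34, Tbr1 -0.34 to 0.31, Foxp2 -1.12 to 0.78 and -0.51 to 0.074 and -0.45 to 0.26 and -1.05 to 0.44, Etv1 -0.30 to 0.37 and -0.069 to 0.23. So did 5 between numbers: Cux1 -0.047 to 1.12, Cux2 -0.011 to 0.25, Rorb -0.13 to 0.016, Bcl11b -0.19 to 0.022, Foxp2 -0.062 to 0.21. List medians with 1 array left out, an alternative added after seeing the data, ran from -0.13 to 0.061 for upper layers, -0.23 to 0.095 for layer 5, -0.16 to 0.032 for layer 6, 0 to 0.017 for family relatives, -0.25 to 0.15 for developmental factors and -0.28 to 0.083 for possible targets. With centring they were -0.018, 0.023, 0.049, 0.055, 0.045 and 0.030, and with the mean of all probe sets -0.0094 for upper layers and -0.043 for developmental factors. The cause of these changes was not tested.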

Other observations

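The brightest Cux2 probe set had the widest range over the 4 arrays, 1.06, among the brightest probe sets of the 8 layer genes. Among 12205 other genes that reached the median level, the 3 whose values about their own mean were nearest to it over the 4 arrays were Eif4g3, Npepps and Tead1. Their root mean square differences from Cux2 were 0.0154, 0.0167 and 0.0206 on the log2 scale. A likeness over 4 arrays that differ mainly by number describes these arrays only.

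The authors' deposited table gave mean levels below the lowest of the 4 arrays for 17 of the 29 probe sets and above the highest for 2. Over all 45101 probe sets it did so for 18636 and 14921. For Rorb 1455799_at it listed 8.24, while the 4 arrays ran from 8.47 to 12.00, and for Cux2 1447821_at it listed 5.19, while all 4 arrays stood at 7.24. None of its adjusted p for the 29 was under 0.05 (0 of 29), and Foxp2 1458191_at had an unadjusted p in the authors' deposited table of 0.0370.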
